A study of Mus musculus with 8 samples.

Results

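The kinase family studied here is calcium/calmodulin-dependent protein kinase II (CaMKII), with its 4 mouse genes Camk2a, Camk2b, Camk2d and Camk2g, and the genes of its 2 small inhibitor proteins, Camk2n1 and Camk2n2. All 6 were found by symbol among the 55536 genes of the count table, and all 6 were among the 16333 with enough counts to be tested. Camk2n2 was selected on its own counts in these libraries, which were lower after knockdown of the transcription factor Klf4, and the other 5 genes were added because they are its paralog and the kinases it inhibits. The fall of Camk2n2 is therefore described without a test, and its paralog and the kinases are read beside it.

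The study asked which genes depend on Klf4 in alpha cells grown in culture. Poly(A) RNA came from alphaTC6 cells, a mouse line of glucagon-producing pancreatic alpha cells labelled as wild type, 48 h after lipid reverse transfection. The groups were 4 libraries from cells given a scramble siRNA and 4 from cells given siRNA against Klf4, described as a pool in the series text. Batch 1 held 2 scramble and 3 Klf4 siRNA libraries (replicates 1, 2 and 4), and batch 2 held 2 scramble libraries (replicates 3 and 4) and 1 Klf4 siRNA library (replicate 3). The series text calls the replicates biological, and since all 8 libraries are from 1 line their spread is not that between animals. The extraction protocol speaks of islets where every label names the cell line. The labels give no step of the work at which the batches parted.

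CaMKII enzymes are held inactive by part of their own chain until calcium-loaded calmodulin binds, and once active they can phosphorylate themselves and stay active after calcium has fallen. Camk2a and Camk2b are best known from neurons, whereas Camk2d and Camk2g are made in most tissues. The proteins of Camk2n1 and Camk2n2 bind the active kinase and block it. In islet endocrine cells calcium entry precedes hormone release, and CaMKII is one of the enzymes that reads this signal.

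Totals ran from 45954151 to 64185987 counts per library. Klf4 itself had 41.8 ± 5.67 CPM (counts per 1000000 counts of the library; SD, n = 4) in scramble and 15.6 ± 4.26 CPM (SD, n = 4) in Klf4 siRNA libraries, with no overlap, and a fitted log2 fold change of -1.33 ± 0.17 (standard error, SE; edgeR adjusted p = 0.0083). Without scramble replicate 1 that adjusted p was 0.052, and within batch 1 alone 0.104. Of 8 alpha cell markers all were detected, with summed levels of 3181 to 3456 CPM in batch 1 and 9938 to 11262 CPM in batch 2. After Klf4 siRNA 4 of the 8 were lower and 0 higher (edgeR adjusted p under 0.05), where 6.81% of all tested genes were lower and 4.88% higher. Of 7 beta cell markers 4 (Ins1, Ins2, Pdx1 and Ucn3) had 0 counts in every library. The list summed to between 107 and 152 CPM, nearly all of it Nkx6-1, which had 103 to 149 CPM and a log2 fold change of -0.12 ± 0.04 (SE; edgeR adjusted p = 0.044). Mafa had 2.70 to 3.76 CPM and Iapp at most 19 counts. The part of these markers in the results that follow was not tested. Markers of immune and endothelial cells summed to at most 2.80 CPM. Neuron markers summed to between 313 and 355 CPM, nearly all of it Map2, whereas Slc17a7 had at most 11 counts. In bulk RNA, fewer cells of a type and less RNA per cell cannot be told apart.

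Camk2n2 (ENSMUSG00000051146) lies on chromosome 16 at 20619215 to 20621287 of GRCm38, minus strand, with 1 annotated transcript of 2 exons. Camk2n1 (ENSMUSG00000046447) lies on chromosome 4 at 138454314 to 138460123, plus strand, also with 1 transcript of 2 exons. Both exons of either gene carry part of the coding sequence. The coding sequences are shown because paralogs can share reads. In GENCODE transcripts (mouse release 21) they are 237 bases long for Camk2n1 and 240 bases for Camk2n2, and 170 of 240 aligned positions (70.8%) are identical. Capitals mark the longest run of bases common to both, 23 bases long.
Camk2n1: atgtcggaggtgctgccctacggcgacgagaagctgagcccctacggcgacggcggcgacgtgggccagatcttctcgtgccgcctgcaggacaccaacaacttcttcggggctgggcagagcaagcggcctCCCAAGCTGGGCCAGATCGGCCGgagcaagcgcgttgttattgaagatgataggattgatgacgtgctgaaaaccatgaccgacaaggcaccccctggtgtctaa
Camk2n2: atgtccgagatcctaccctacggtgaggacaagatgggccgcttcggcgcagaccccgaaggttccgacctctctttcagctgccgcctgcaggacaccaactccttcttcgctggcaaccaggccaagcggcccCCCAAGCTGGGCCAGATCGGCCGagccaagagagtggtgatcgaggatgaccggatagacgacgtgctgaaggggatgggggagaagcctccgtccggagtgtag
No window of 50 bases in any transcript of the 6 genes occurs in a transcript of another, so reads of that length or longer that match 1 of them exactly do not match a second. The read length was not stated. The span of Camk2n2 overlaps Gm49333 on the opposite strand, but 0 exonic bases are shared and Gm49333 had 0 counts in every library.

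Camk2n2 was the member with the largest difference between treatments. Scramble replicates 1 to 4 gave 124, 131, 117 and 121 CPM, against 66.7, 68.4, 73.1 and 66.9 CPM in the Klf4 siRNA replicates. Each of the Klf4 siRNA libraries was below each of the scramble libraries. Group levels were 123 ± 5.89 and 68.8 ± 2.96 CPM (SD, n = 4 each). The fitted log2 fold change with batch as a term was -0.85, which left 55.6% of the scramble level. Among the 6 members, Camk2n2 alone had treatment groups that did not overlap, where 10.5% of all tested genes had none. This contrast chose the gene, so neither a test nor an interval is attached to it.

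The fall of Camk2n2 was seen in both batches and was numerically smaller in batch 2. The difference of mean log2 CPM was -0.92 within batch 1 and -0.71 within batch 2, where a single Klf4 siRNA library gave it. The fitted difference between the batches was 0.22 on the log2 scale. It is made of the values that chose the gene and rests on that single library, whose spread is assumed to be that of the other groups, so it is given without a test. The interaction of batch and treatment was called for 0 of the 16333 genes by edgeR and for 0 by DESeq2, with 540 genes (3.31%) at an unadjusted p under 0.05 in edgeR.

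**Figure D1:**
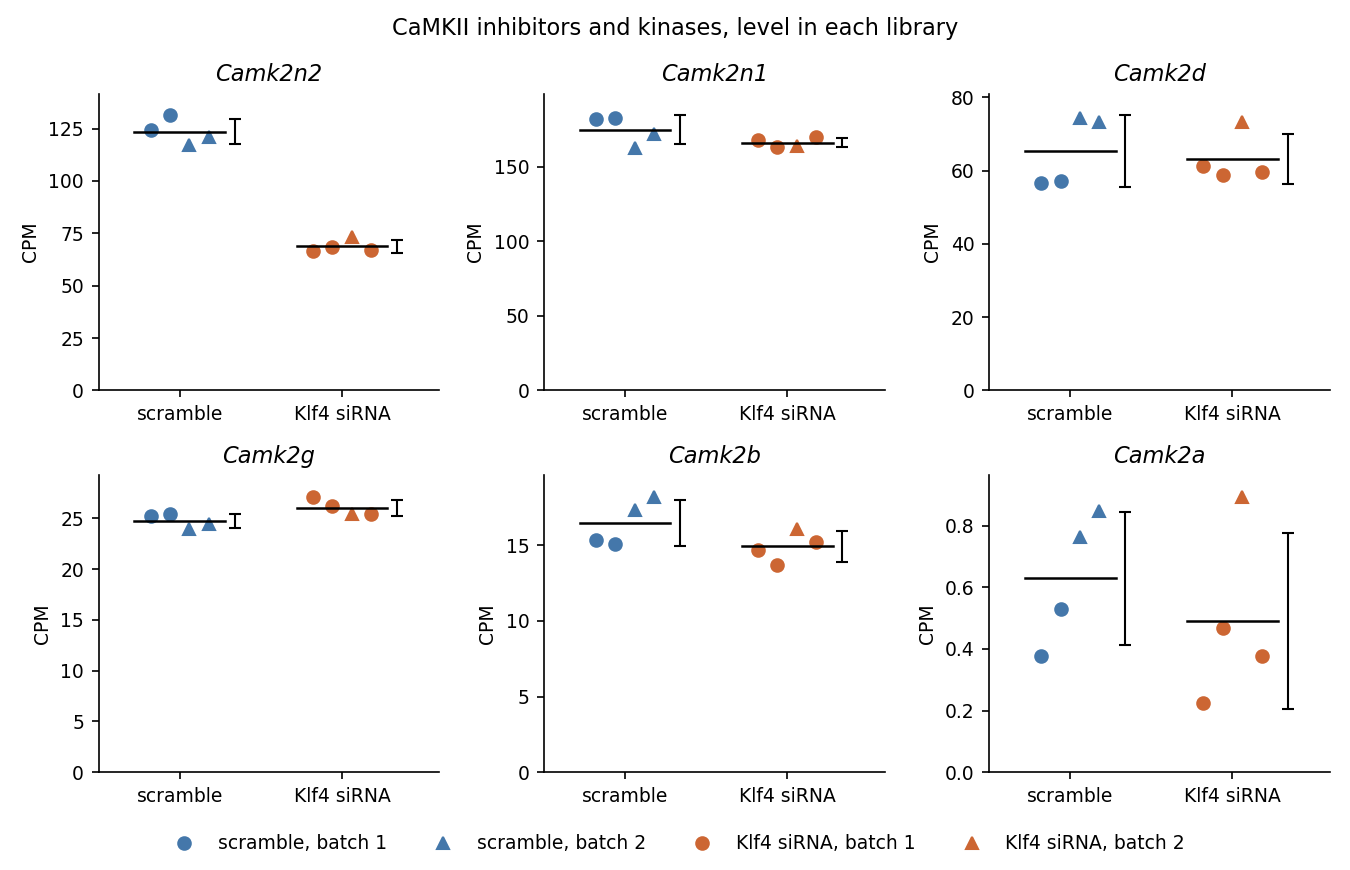
Level of each of the 6 genes in each library, in CPM on linear axes that start at 0. Points are libraries (circles batch 1, triangles batch 2), lines the mean of 4 and bars the SD. Camk2n2 falls from 117 to 131 CPM in scramble to between 66.7 and 73.1 CPM in Klf4 siRNA libraries, whereas the groups of the other 5 genes overlap.

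For Camk2n1, the paralog, scramble replicates 1 to 4 gave 182, 183, 163 and 172 CPM, against 168, 163, 164 and 170 CPM in the Klf4 siRNA replicates. The 4 Klf4 siRNA libraries lay within the range of the scramble libraries. The fit gave -0.09 ± 0.03 (log2, SE), a 95% interval from -0.15 to -0.03 and an edgeR adjusted p of 0.041. It was thus called lower, at 93.7% of the scramble level, as 6.81% of all tested genes were, whereas 4.88% were called higher. The call rests on the setting: it was lost in 10 of 17 alternatives, with adjusted p-values up to 0.445 without the batch term. Leaving out scramble replicate 1, 2 or 4 gave edgeR adjusted p-values of 0.196, 0.226 and 0.070, and leaving out Klf4 siRNA replicate 1 or 2 gave 0.087 and 0.111. The difference was -0.13 within batch 1 and -0.03 within batch 2.

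Because each inhibitor has a single annotated transcript, their levels can be set side by side per kilobase (kb) of exon. In scramble libraries Camk2n2 had 95.7 ± 4.56 and Camk2n1 39.3 ± 2.13 CPM per kb (SD, n = 4 each). After Klf4 siRNA the levels were 53.3 ± 2.30 and 37.4 ± 0.68 CPM per kb. Camk2n2 was thus the more abundant of the inhibitor transcripts in 8 of 8 libraries. Its excess over Camk2n1 was 2.36 to 2.48 times in scramble libraries and 1.36 to 1.54 times in Klf4 siRNA libraries. As a share of both inhibitors per kb, Camk2n2 took 70.9% ± 0.50 and 58.8% ± 1.37 (SD, n = 4 each), and the groups did not overlap. The summed inhibitor level per kb was 135.0 ± 6.54 in scramble and 90.6 ± 1.88 CPM per kb in Klf4 siRNA libraries, or 67.1%. These ratios hold the fall of Camk2n2 itself and are descriptions.

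None of the 4 kinase genes was called between treatments. Over the paralog and the 4 kinases, 1 of 5 passed an edgeR adjusted p under 0.05, where 11.7% of all tested genes did. The kinase log2 fold changes ran from -0.09 to 0.06, beside a median of 0.00 over all tested genes.

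Camk2d (ENSMUSG00000053819, chromosome 3, 126596302 to 126846326, plus strand) gave 56.5, 57.3, 74.3 and 73.2 CPM in the scramble and 61.4, 58.7, 73.2 and 59.6 CPM in the Klf4 siRNA replicates. All 3 libraries of batch 2 stood above all 5 of batch 1, whatever the treatment. Its log2 fold change for Klf4 siRNA was 0.04, with a 95% interval from -0.02 to 0.11 (edgeR adjusted p = 0.451). Group means ran the other way, 65.3 ± 9.74 and 63.2 ± 6.76 CPM (SD, n = 4 each), since scramble had more libraries in batch 2. Without the batch term the log2 fold change was accordingly -0.05 (edgeR adjusted p = 0.890).

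Camk2g (ENSMUSG00000021820, chromosome 14, 20734875 to 20794088, minus strand) was the steadiest kinase. Its scramble replicates gave 25.3, 25.4, 23.9 and 24.4 CPM and its Klf4 siRNA replicates 27.1, 26.2, 25.4 and 25.4 CPM. The top of the scramble range met the bottom of the Klf4 siRNA range at 25.4 CPM. Its log2 fold change was 0.06, with a 95% interval from -0.03 to 0.14 (edgeR adjusted p = 0.417).

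Camk2b (ENSMUSG00000057897, chromosome 11, 5969644 to 6066362, minus strand) gave 15.4, 15.1, 17.3 and 18.2 CPM in the scramble and 14.7, 13.7, 16.1 and 15.2 CPM in the Klf4 siRNA replicates. Within batch 2 the Klf4 siRNA library was below both scramble libraries, and within batch 1 the groups overlapped. The log2 fold change was -0.09, with a 95% interval from -0.20 to 0.02 (edgeR adjusted p = 0.294).

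Camk2a (ENSMUSG00000024617, chromosome 18) was close to the limit of detection, with 11 to 49 counts per library. The scramble replicates gave 0.38, 0.53, 0.76 and 0.85 CPM and the Klf4 siRNA replicates 0.22, 0.47, 0.89 and 0.38 CPM. The highest library was Klf4 siRNA replicate 3 and the lowest Klf4 siRNA replicate 1, so the groups overlapped throughout. Its log2 fold change was -0.08 with a 95% interval from -0.57 to 0.40 (edgeR adjusted p = 0.887). That interval reaches from 67.4% to 132% of the scramble level, so the data leave changes of that size possible. For Camk2d, Camk2g and Camk2b the corresponding intervals were 98.5% to 108%, 98.2% to 111% and 86.8% to 101%.

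**Figure D2:**
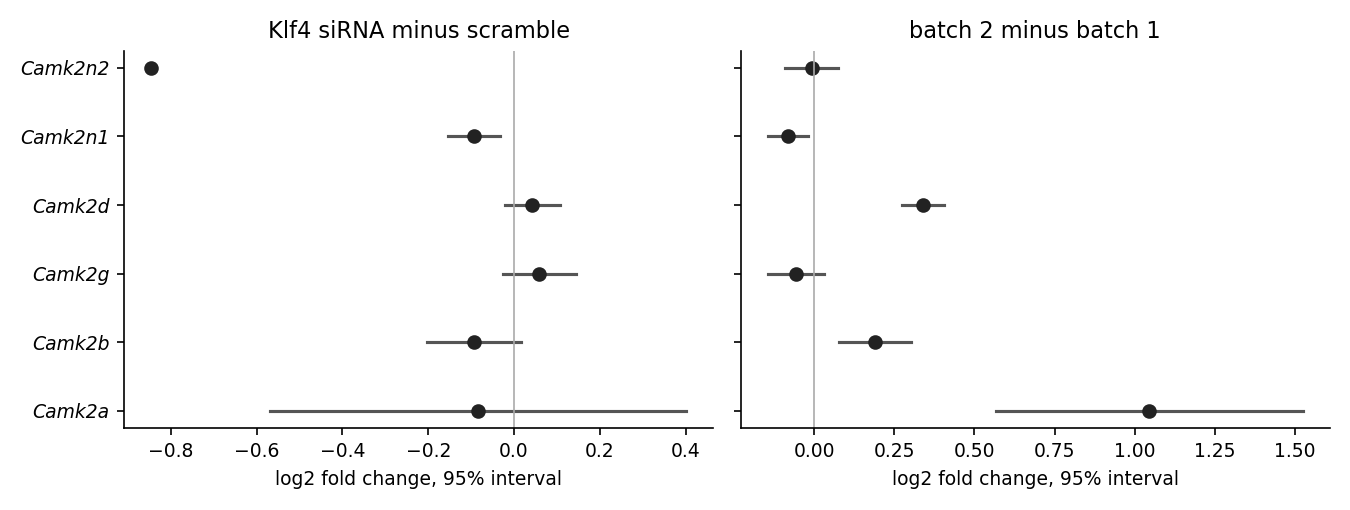
Fitted log2 fold change (point) with its 95% interval (line; none for Camk2n2 on the left, where the contrast chose it), for Klf4 siRNA minus scramble on the left and batch 2 minus batch 1 on the right (edgeR, 8 libraries, both terms in 1 fit). On the left Camk2n2 lies at -0.85 and the other 5 between -0.09 and 0.06. On the right Camk2a, Camk2d and Camk2b lie at 1.05, 0.34 and 0.19, and Camk2n2 at -0.01.

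The comparison of batches did not use the treatment difference on which Camk2n2 was selected, although it rests on the same libraries. In this contrast 4 of the 6 members were called (3 higher and 1 lower in batch 2), where 32.7% of all tested genes were, 16.8% higher and 15.9% lower. The 3 that were higher were kinases. Camk2d was 1.26-fold higher in batch 2, at 58.7 ± 1.90 CPM in batch 1 (SD, n = 5) and 73.6 ± 0.61 CPM in batch 2 (SD, n = 3), or 0.34 ± 0.03 (log2, SE; edgeR adjusted p = 3.76e-08). Camk2a was 2.07-fold higher, at 0.39 ± 0.12 and 0.83 ± 0.06 CPM (edgeR adjusted p = 0.0013), and Camk2b was 1.14-fold higher, at 14.8 ± 0.67 and 17.2 ± 1.05 CPM (edgeR adjusted p = 0.0093). For these 3 kinases no library of batch 2 overlapped batch 1, which was so for 29.4% of all tested genes.

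The other kinase and the inhibitors differed little between batches. Camk2g had a log2 difference of -0.06 (edgeR adjusted p = 0.319) and Camk2n1 of -0.08 (0.039), the latter call being lost in 6 of 14 alternatives. Camk2n2 had -0.01, with a 95% interval from -0.09 to 0.07, and is given without a test. For Camk2a, leaving out Klf4 siRNA replicate 3 gave an adjusted p of 0.054. The alpha cell marker sum also differed between batches, as given above, and its part in the kinase differences was not tested.

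Kinase levels can be compared with each other only per kb, and the length taken matters. With the union of annotated exons the order was Camk2g, Camk2d, Camk2b and Camk2a, at 3.86 ± 0.11, 2.91 ± 0.43, 1.81 ± 0.17 and 0.084 ± 0.029 CPM per kb in scramble libraries (SD, n = 4 each). This order held in 8 of 8 libraries. The exons of Camk2d add up to 22.5 kb over 28 transcripts, whereas its longest transcript has 5.52 kb. With the longest transcript as the length, Camk2d came first at 11.8 ± 1.76, before Camk2g at 6.68 ± 0.19, Camk2b at 4.00 ± 0.37 and Camk2a at 0.13 ± 0.04 CPM per kb, again in 8 of 8 libraries. The place of Camk2g against Camk2d is therefore not settled by gene counts. Camk2b below both and Camk2a last did not depend on the length, nor did the place of both inhibitors above every kinase.

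Inhibitor transcripts outnumbered kinase transcripts per kb in every library. The ratio of Camk2n2 to the sum of the 4 kinases was 11.8, 12.3, 10.1 and 10.2 in the scramble libraries and 6.01, 6.40, 6.21 and 6.22 in the Klf4 siRNA libraries. The groups did not overlap, nor did those of Camk2n2 itself. Their means were 11.1 ± 1.13 and 6.21 ± 0.16 (SD, n = 4 each), a drop to 56.0%. This ratio holds the fall of Camk2n2 that chose the gene and is a description. With the longest transcript as the length the ratios were 4.26 ± 0.55 and 2.40 ± 0.08, a drop to 56.4%. Camk2n1 over the kinases was 4.56 ± 0.50 and 4.36 ± 0.23, or 1.75 ± 0.24 and 1.69 ± 0.12 with the longest transcript. Within batch 1 this ratio was 4.99 in both scramble libraries and 4.38, 4.45 and 4.58 in the Klf4 siRNA libraries. In batch 2 it was 4.05 and 4.22 in scramble and 4.04 in the Klf4 siRNA library. With the longest transcript that library, at 1.52, lay between the scramble libraries at 1.51 and 1.58. These differences were not tested. The kinase sum itself was 8.66 ± 0.52 in scramble and 8.58 ± 0.38 CPM per kb in Klf4 siRNA libraries, or 22.6 ± 1.97 and 22.2 ± 1.39 CPM per kb with the longest transcript. These means pool the batches, and scramble had more libraries in batch 2. Within batch 1 the sums ran the other way, at 8.19 and 8.24 in scramble and 8.60, 8.27 and 8.33 in Klf4 siRNA libraries (union of exons). In batch 2 the Klf4 siRNA library, at 9.11, lay between the scramble libraries at 9.04 and 9.17. The kinase sum followed batch with either length. It was 8.19 to 8.60 in the libraries of batch 1 and 9.04 to 9.17 CPM per kb in those of batch 2 with the union of exons. With the longest transcript it was 20.9 to 22.0 and 24.2 to 24.4 CPM per kb.

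**Figure D3:**
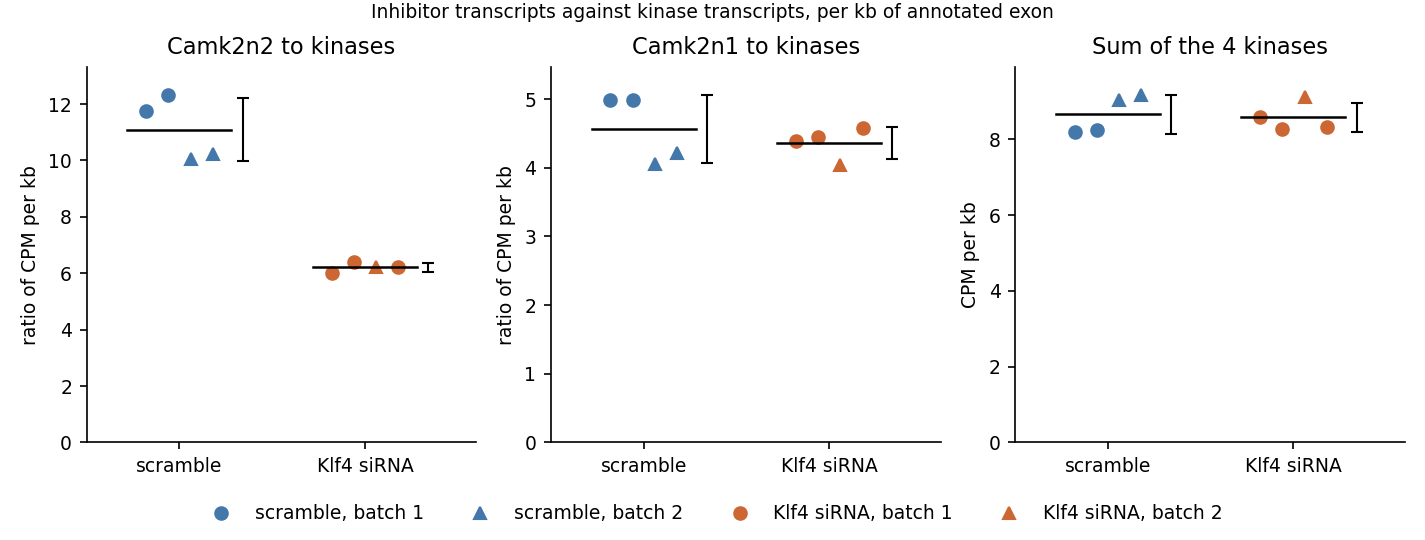
Ratio of Camk2n2 and of Camk2n1 to the summed kinases, and the kinase sum, each per kb of annotated exon on linear axes from 0. Points are libraries (circles batch 1, triangles batch 2), lines the mean of 4 and bars the SD. The ratio for Camk2n2, which holds the fall that chose the gene, goes from a mean of 11.1 to 6.21. That for Camk2n1 goes from 4.56 to 4.36, with groups that overlap when the batches are pooled. Within batch 1 its Klf4 siRNA libraries lie at 4.38 to 4.58 and its scramble libraries at 4.99. In batch 2 the Klf4 siRNA library lies at 4.04 and the scramble libraries at 4.05 and 4.22.

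Other genes of calcium and calmodulin signalling were taken from a list of 40, of which 33 were tested. After Klf4 siRNA 4 rose and 4 fell (edgeR adjusted p under 0.05), together 24.2% of those tested beside 11.7% of all tested genes. The median log2 fold change was -0.05 over the list and 0.00 over all tested genes, and the list's values ran from -0.26 to 0.22. None of the 33 had a difference as large as the -0.85 of Camk2n2. That gene was chosen for its fall in this contrast, so the comparison does not rank it within the pathway. The count was 4 without scramble replicate 1, 5 without scramble replicate 2 and 4 without Klf4 siRNA replicate 3. The 7 that were not tested, among them Camk1g, Pnck and Grin2b, had at most 12 counts in any library.

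Calm3, a gene of calmodulin, the calcium sensor of these kinases, fell after Klf4 siRNA. It went from 677, 684, 685 and 727 CPM to 569, 605, 618 and 596 CPM, with no overlap. The fit gave -0.20 ± 0.03 (log2, SE; edgeR adjusted p = 9.87e-05), and the call held in 17 of 17 alternatives. Calm2, which encodes the same protein, so that reads within the coding part can be hard to assign, had 0.05 (edgeR adjusted p = 0.479).

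Of 2 upstream kinases, Camkk2, which phosphorylates CaMKI and CaMKIV, fell by 0.15 on the log2 scale (edgeR adjusted p = 0.039), a call lost in 11 of 17 alternatives. Of 3 tested related kinases, Camk4, a nuclear CaM kinase, rose by 0.12 (0.014). Camkk2 reached an adjusted p of 0.305 without scramble replicate 2. Camk4 lost its call in 6 alternatives, with an adjusted p of 0.101 without scramble replicate 1, 0.067 without scramble replicate 2 and 0.052 without Klf4 siRNA replicate 3.

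Of 2 phosphatases that remove the activating phosphate from CaM kinases, Ppm1f rose by 0.17 ± 0.03 (log2, SE; edgeR adjusted p = 0.0016), with means of 63.5 ± 5.96 and 74.0 ± 5.43 CPM (SD, n = 4). Ppm1e had -0.05 (0.700). Calcineurin is the phosphatase that calmodulin switches on, and none of its 4 tested subunit genes was called. Of its 3 regulators, Rcan3 had -0.26 ± 0.03 (log2, SE; edgeR adjusted p = 3.01e-06), with scramble libraries at 165 to 192 CPM and Klf4 siRNA libraries at 143 to 162 CPM. Without the batch term the calls of Ppm1f (adjusted p = 0.186) and Rcan3 (0.114) were lost. Rcan2 fell by 0.19 on the log2 scale (0.016). Rcan2 also differed between batches by 0.77, and without the batch term its value was -0.40 with an adjusted p of 0.573. Without scramble replicate 1 or Klf4 siRNA replicate 3 its adjusted p was 0.116 and 0.104.

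Of 13 tested substrates and effectors of CaMKII, 2 (15.4%) rose and 0 fell, a share near the 11.7% of all tested genes that were called. Mef2d, a transcription factor that class II histone deacetylases repress, went from 249, 246, 251 and 259 CPM to 298, 285, 284 and 299 CPM. The groups did not overlap, and the fit gave 0.22 ± 0.03 (log2, SE; edgeR adjusted p = 4.28e-05). Hdac4, such a deacetylase and a CaMKII substrate, rose by 0.11 (0.019), and its adjusted p was 0.150 without scramble replicate 1, 0.070 without scramble replicate 2 and 0.054 without Klf4 siRNA replicate 3. Of 3 tested calmodulin-binding buffer genes 0 passed in edgeR, the smallest adjusted p being that of Marcks (-0.10 on the log2 scale, edgeR adjusted p = 0.099). Marcks encodes a membrane protein that binds calmodulin.

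**Figure D4:**
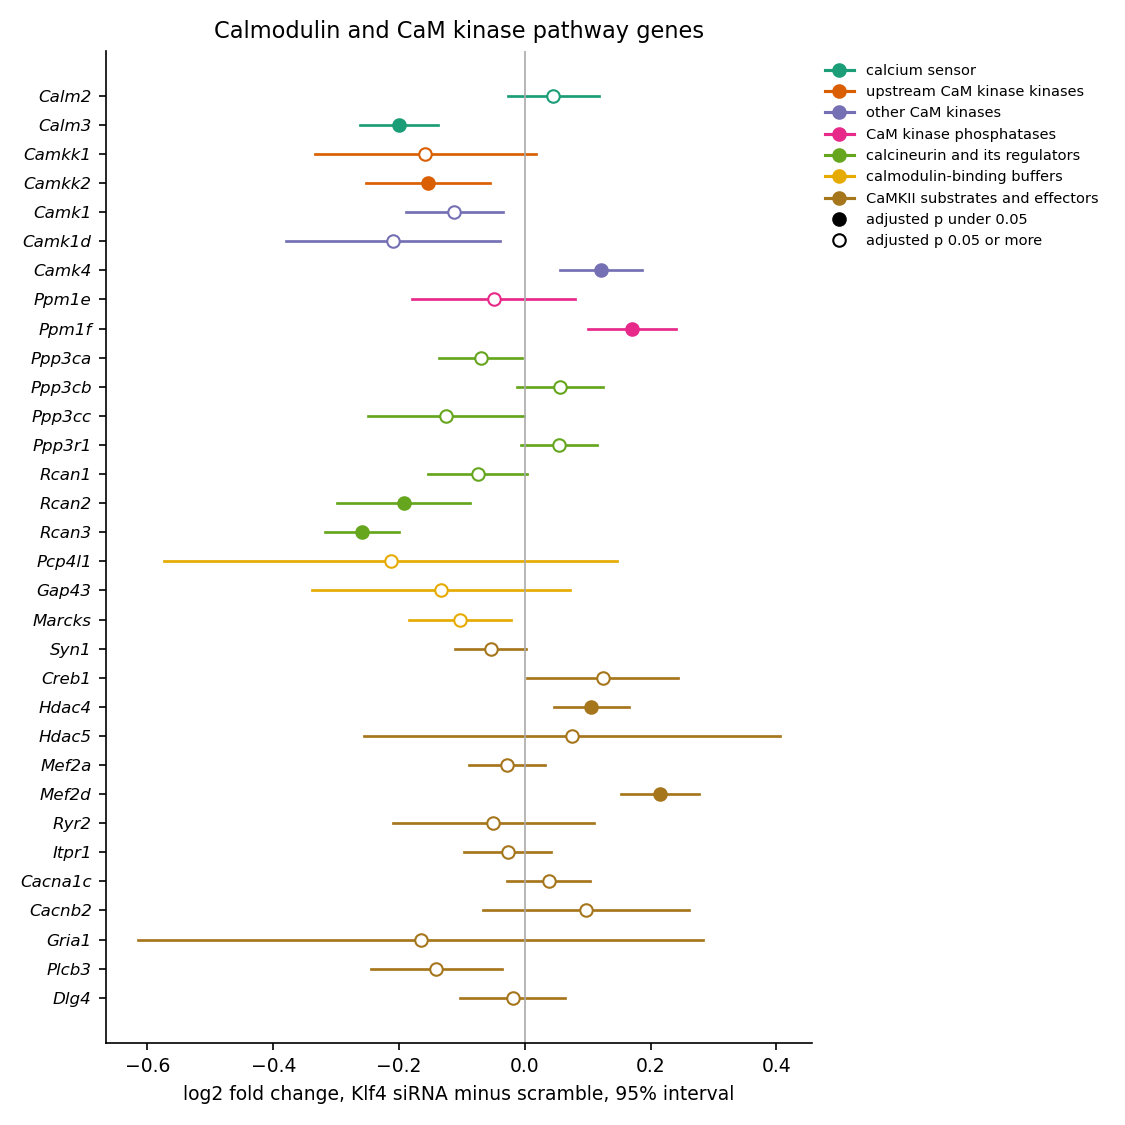
Log2 fold change for Klf4 siRNA minus scramble (point) with its 95% interval (line) for 32 of the 33 tested pathway genes, coloured by group, filled where the edgeR adjusted p was under 0.05. The 8 filled points lie between -0.26 (Rcan3) and 0.22 (Mef2d).

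The genes with the profile nearest to Camk2n2 were found over the 8 libraries, from log2 CPM relative to the scramble mean of the same batch. Nearness was the root mean square difference, among tested genes with a mean of at least 1 CPM. Rrbp1, which encodes a ribosome-binding protein of the endoplasmic reticulum, was nearest at 0.06. Pxylp1, a xylose phosphatase of proteoglycan synthesis, and Fbxl16, an F-box protein, followed at 0.09 each. Tnfaip2 at 0.09 and Dctn3, a dynactin subunit, at 0.12 completed the 5. All 5 are lower after Klf4 siRNA by construction of the measure. In Klf4 siRNA replicate 3, the library of batch 2, Camk2n2 was at -0.71 and the 5 genes between -0.92 and -0.55, whereas in the 3 libraries of batch 1 Camk2n2 was between -0.94 and -0.90.

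**Figure D5:**
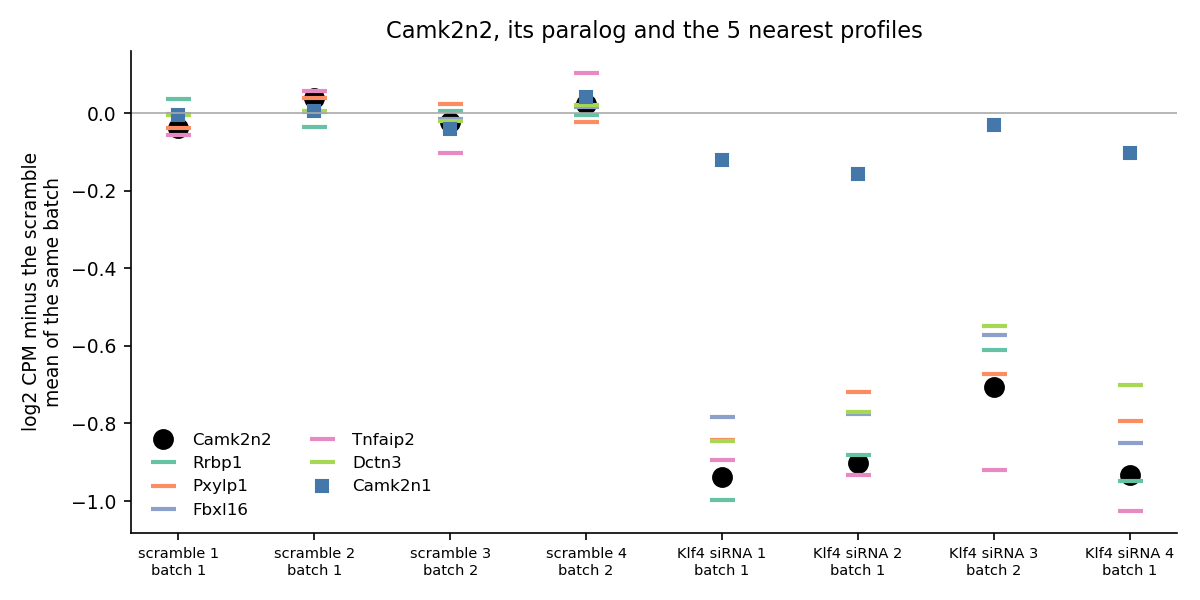
Log2 CPM of Camk2n2 (black circles), Camk2n1 (squares) and the 5 genes nearest to Camk2n2 (dashes) in each library, relative to the mean of the scramble libraries of the same batch. In the Klf4 siRNA libraries Camk2n2 lies between -0.94 and -0.71 and Camk2n1 between -0.16 and -0.03.

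The promoter window of Camk2n2 is shown because Klf4 encodes a DNA-binding protein whose family recognises GC-rich and CACCC-like sequences. The RefSeq window of 250 bases before and 50 after the start lies at chr16:20621229-20621528 of GRCm38.p6, minus strand, and is 79.0% G and C. Capitals mark CCGCCC or its reverse complement GGGCGG.
Camk2n2: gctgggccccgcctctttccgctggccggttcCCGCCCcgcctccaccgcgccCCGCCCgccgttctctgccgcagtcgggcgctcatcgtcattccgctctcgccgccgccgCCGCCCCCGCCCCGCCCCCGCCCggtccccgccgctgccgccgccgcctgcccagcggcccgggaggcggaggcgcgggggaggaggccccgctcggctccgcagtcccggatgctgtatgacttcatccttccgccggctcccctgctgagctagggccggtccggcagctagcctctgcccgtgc
It held 6 matches to CCGCCC, overlapping matches and both strands counted, and 0 to CACCC or its reverse complement GGGTG, so the motifs did not overlap. Of 32851 windows of that length, 35.7% held CCGCCC at least once, 1.35% held it at least 6 times and 57.5% held CACCC. The corresponding windows of Camk2b and Camk2d, kinases that were not called, held CCGCCC 3 times each, and CACCC 5 and 0 times. Windows of Camk2n1, Camk2g and Camk2a were not analysed here, so the paralog is not compared. A match is a description of letters, and binding was not measured.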

How the data were processed

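The authors deposited whole-number counts per gene, not normalized, in 1 table with a column for each of 8 libraries, and 0 further sample columns were left unused. The submitters' processing notes name FastQC, STAR, featureCounts, DESeq2 and the mm10 build, with no versions, order or strand setting, and the design text names edgeR with batch correction. All 55536 identifiers and symbols matched GENCODE mouse release 21 (GRCm38), which gave lengths, positions and overlaps.

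Genes were kept with filterByExpr, libraries scaled with TMM, and batch and treatment fitted together with edgeR 4.0.16 in R 4.3.3 (robust quasi-likelihood, 5 residual degrees of freedom). Two-sided p-values received Benjamini-Hochberg adjustment across the 16333 tested genes, and calls needed an adjusted p under 0.05. SE is the log2 value, without its sign, over the root of its F statistic. CPM is counts per 1000000 of the TMM-scaled library total, and log2 CPM carries a prior count of 2. The model was tested on simulated data. Counts include any PCR duplicates, so error was taken from the spread between libraries. The members and lists were chosen with earlier results of these data known. Named genes were the members, the nearest 5 profiles and at most 4 called genes of each pathway group. Calm2, Ppm1e, Marcks, Camk1g, Pnck, Grin2b and the cell type markers named lie outside that rule and were named after their values were seen. A further 1 tested pathway gene, which was not called, is counted but not reported here. Alternatives were other designs, scalings, tools, filters and lengths, and each library left out in turn (limma 3.58.1, DESeq2 1.42.0).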

Additional observations from a re-analysis of the deposited data

How the results depend on the processing

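The fall of Camk2n2 kept its direction in 17 of 17 alternatives, between -0.93 and -0.80. These refit the libraries and the contrast that chose the gene, so the kept direction is no further evidence. Camk2b and Camk2g stayed uncalled in all 17. Of the 5 other members, the 1 called after Klf4 siRNA (Camk2n1) became 0 with library size alone, limma-voom, no filter, no batch term or the replicate block, and 0 to 1 with a library left out. Camk2d turned to -0.049 without the batch term and -0.043 with the replicate block. Camk2a moved from -0.08 to -0.36 without the batch term and -0.40 with the replicate block, and ran from -0.31 to 0.070 with a library left out, turning to 0.070 without scramble replicate 2 and 0.039 without Klf4 siRNA replicate 1. The 8 pathway genes called became 2 without the batch term, 5 with the replicate block, 5 with batch 1 alone and 4 to 8 with a library left out. All genes called, 1909, became 409 without the batch term, 1220 with the replicate block, 1232 with batch 1 alone and 934 to 2021 with a library left out (934, 1012 and 1232 without scramble replicate 1, scramble replicate 2 and Klf4 siRNA replicate 3). Deviations from the group means, with batch not removed, correlated within a replicate number at 0.49, 0.42, 0.72 and -0.34 for numbers 1 to 4. Number 4, whose libraries lie in different batches, fell short of the 0.1 asked of every number, so the numbers were not taken to pair the libraries. The libraries of numbers 1 to 3 share a batch, so these values cannot tell pairing from batch. They do not show that pairing is absent. With the replicate block Camk2n1, Camkk2, Camk4, Rcan2 and Hdac4 were not called (edgeR adjusted p = 0.234, 0.076, 0.089, 0.343 and 0.058). Of the 8 pathway genes called, Calm3, Ppm1f, Rcan3 and Mef2d were called with it, and 1 further gene of the list was. Between batches, the 4 members called became 2 with a mean of at least 5 CPM, a filter that drops Camk2a, and 3 to 4 with a library left out. The batch difference of Camk2n2 changed sign with that filter (0.0023) and without scramble replicate 2 (0.029), 3 (0.021) or 4 (0.00076). It ran from -0.10 to 0.029 with a library left out. Interaction calls went from 0 to 17 with no filter and to 0 to 13 with a library left out (13 without scramble replicate 3). That fit could not be made without Klf4 siRNA replicate 3. The ratio of Camk2n2 to the kinases moved to 4.26 and 2.40 with the longest transcript as the length, and to 10.7 to 11.4 and 6.15 to 6.28 with a library left out. Where no cause is given, the cause was not tested. Camk2a rests on at most 49 counts per library, and the parts of depth and of the spread between libraries in its interval were not tested.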
